A study of Komagataella phaffii with 15 samples.

Results

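The genes described here are those of *Komagataella phaffii* for which the stranded kallisto counts held most of the reads. For each gene, the kallisto estimated counts of the 15 libraries were set against the reads recovered from the deposited normalized counts of the same libraries. A gene was a member when it had at least 100 recovered reads over the 15 libraries and when its summed kallisto counts came to more than 75% of them. Its group means, with 1 added, also had to give a log2 ratio between -1 and 1 for *flo8Δ* against the wild-type strain at S1 and at S3, and between -0.5 and 0.5 for S3 against S1 in the wild-type strain. Members were thus chosen by measured values, the share and these ratios of the same libraries. The limits left 117 members of 5341 genes, or 2.20% of the 5318 genes with at least 100 reads. Those values are given below as a description, with no test. Another 25 genes passed the share and not the ratios.

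RNA-Seq of poly-A RNA covered glucose-limited chemostat cultures of strain CBS7435, sampled as 5 groups of 3 biological replicates. The *flo8Δ* strain was sampled at S1, at a dilution rate of 0.1 per hour, and at S3, at 0.05 per hour. It is a single deletion strain from earlier work that lacks the promoter stretch next to PP7435_Chr4-0252 and the first part of its open reading frame, after removal of the marker. The wild-type strain (WT) was sampled at S1 and S3 at the same rates, and at S5 after a switch back to 0.1 per hour. No *flo8Δ* library at S5 was analysed here. The same chemostat run supplied successive sampling points, so a culture may stand behind several libraries of its strain, and p-values measure the spread between these samples.

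A library that keeps strand tells which of the DNA strands a gene's RNA was copied from, and antisense RNA or the RNA of an overlapping neighbour can be counted apart from the gene's own. kallisto's fr setting, which the deposited files name, keeps a single read only where it runs in the direction of the transcript. Whether such a read stands for the gene's own RNA or for RNA of the other strand depends on the library kit, which is not given in the sources used here. The kallisto counts are therefore not assigned below to either strand. The reads less the kallisto counts are called the remaining reads. Per the methods the normalized counts also came from kallisto, so the recovered reads may be rounded estimates of another setting. Yeast genes lie close together, and untranslated ends of neighbours on opposite strands often overlap. Flocculins, the products of the *FLO* genes, are cell wall proteins with which yeast cells adhere to each other and to surfaces. In *Saccharomyces cerevisiae* the transcription factor Flo8 activates *FLO11*, the flocculin of pseudohyphal growth.

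Between 4163342 and 10843287 reads were recovered per library, and the kallisto counts came to 5.06% to 6.11% of them. The shallow libraries were *flo8Δ* S1 replicate 2 (4163342) and WT S1 replicate 3 (4632193), and no other had fewer than 8933682. Counts not given in CPM below are not corrected for this depth. PP7435_Chr4-0252, the gene disrupted in *flo8Δ*, lay between 24.1 and 34.8 TPM (the usual measure of level per length, here from recovered reads) in the 6 *flo8Δ* libraries and between 25.1 and 39.2 TPM in the 9 WT libraries. Per the study's methods the deletion leaves the rest of the open reading frame, and the files give 1 count per transcript with no positions, so these counts do not check the strain labels. In bulk RNA, fewer cells of a kind and less RNA per cell cannot be told apart.

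The kallisto share of the members stood far from that of most genes. Over the 5318 genes with at least 100 reads its median was 2.79%, and 3276 of them (61.6%) lay under 5%. The median of the members was 87.2%. Of the members, 28 lay between 75% and 80%, 40 between 80% and 90%, 13 between 90% and 95%, and 36 above 95%. No gap in the shares marks the limit, since 226 genes lay between 50% and 75%. The members nearest to it were PP7435_Chr2-0972 with 75.2% and PP7435_Chr1-1523 with 75.3%, and the nearest genes outside, within the limits on the ratios, were PP7435_Chr3-2007 with 74.6% and PP7435_Chr2-2199 with 74.2%. At the limit on reads, the members with the fewest were PP7435_Chr4-0403 with 113 reads and PP7435_Chr1-1598 with 189. For S3 against S1 in WT, PP7435_Chr2-1638 and PP7435_Chr2-1173 were the last members, at log2 ratios of 0.49 and 0.48, and PP7435_Chr3-1134 and PP7435_Chr3-0604 fell outside at 0.51 and 0.54. For *flo8Δ* against WT at S1 PP7435_Chr2-0709 reached -0.77, while PP7435_Chr3-0555 was outside at -1.05.

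**Figure D1:**
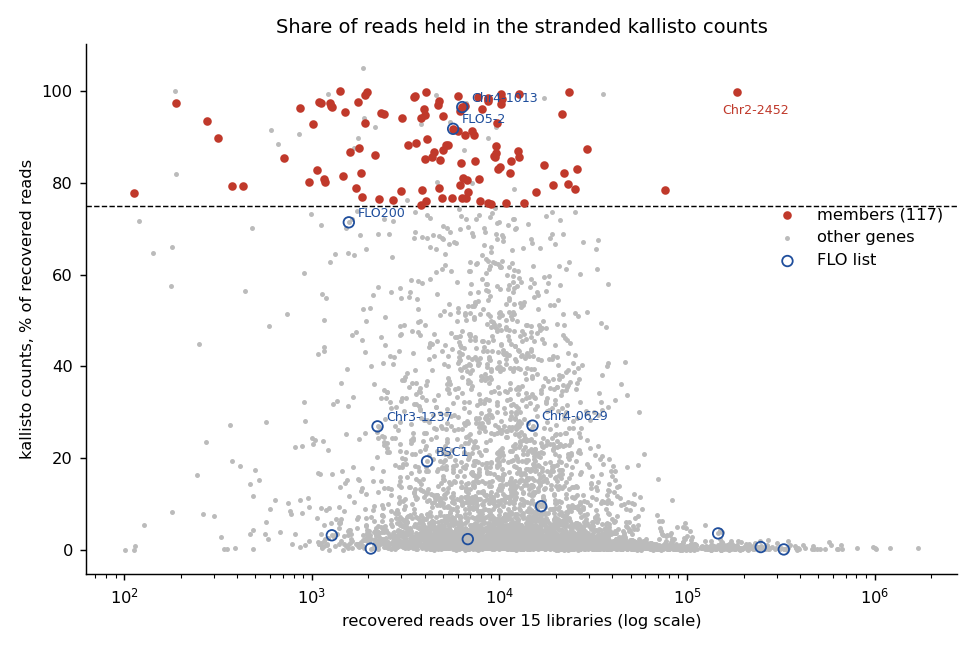
Recovered reads over the 15 libraries (log scale) against the kallisto counts as a percentage of them, for the 5318 genes with at least 100 reads. The 117 members (red) lie above the dashed line at 75%, most other genes (grey; the highest values drawn at the upper edge) lie near 0%, and of the 13 *FLO* genes (blue rings) 2 are members, with *FLO200* just below the line; grey points above the line are the genes outside the limits on the ratios, and tags are written without their PP7435 prefix.

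By all their reads the members were genes of low level, and by the kallisto counts they were among the highest. Per length, their median was 33.2 TPM, against 58.0 TPM over all genes with at least 100 reads. When genes were ranked by TPM, the median member stood at percentile 25.03 on recovered reads and at percentile 93.5 on kallisto counts. Among the 100 highest genes there were 30 members by kallisto TPM and 1 by TPM of the recovered reads. Both ranks follow in part from the rule, which asked for kallisto counts that are high relative to the recovered reads. The members were also shorter than other genes. Their median coding length was 936 bases, against 1174.5 bases over all genes with at least 100 reads, and it ran from 126 bases to 4617 bases. Of the 117 members 19 (16.2%) were under 300 bases, against 3.99% of all genes with at least 100 reads. Their locus tags were spread over the chromosomes, with 36 on Chr1, 31 on Chr2, 25 on Chr3 and 25 on Chr4, which is 1.95% to 2.39% of the genes of each. Only 2 pairs of members had consecutive tags, PP7435_Chr1-0284 with PP7435_Chr1-0285 and PP7435_Chr2-1173 with PP7435_Chr2-1174.

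The members held between 10.9% and 14.8% of a library's kallisto counts, while they held between 0.697% and 0.874% of its recovered reads. In *flo8Δ* they came to 12.1% ± 0.129 of the kallisto counts at S1 and 12.2% ± 0.491 at S3, and in WT to 11.7% ± 0.444 at S1, 11.4% ± 0.550 at S3 and 13.6% ± 1.52 at S5 (SD, n = 3 each). The spread was widest at S5. Without PP7435_Chr2-2452 the members came to 10.2% ± 0.0912 at S1 and 10.3% ± 0.339 at S3 in *flo8Δ*, and in WT S1, S3 and S5 to 9.48% ± 0.645, 8.86% ± 0.136 and 9.82% ± 0.0678 (SD, n = 3 each). The S5 mean then lay below both *flo8Δ* means.

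PP7435_Chr2-2452, with a coding length of 486 bases, had the most reads of all members. Of its 184932 reads over the 15 libraries 99.7% were in the kallisto counts. Its kallisto counts, in CPM (relative to 1000000 recovered reads of the library), were 1083, 888 and 999 in *flo8Δ* at S1 and 960, 1089 and 1122 in *flo8Δ* at S3. In WT they were 1378, 1275 and 952 at S1, 1794, 1557 and 1227 at S3, and 2708, 2277 and 1136 at S5. In WT a replicate stood low at each point, the third one, and at S5 it had less than 1 in 2 of the counts of the others. The gene made up 5.05% and 4.33% of all kallisto counts in WT S5 replicates 1 and 2, and 2.01% in replicate 3. Its remaining reads were few, between 1.92 and 6.57 CPM in any library. By recovered reads over the 15 libraries, the genes most like it were PP7435_Chr4-0524 (Pearson's r of log2 CPM 0.97), PP7435_Chr1-1294 (r = 0.96) and PP7435_Chr3-0882 (r = 0.94), all over libraries that share depth and sampling point. None of these 3 genes is a member, and their kallisto shares were 0.208%, 0.417% and 1.30%.

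The other members with the most reads were at least 2-fold below it. PP7435_Chr3-0774 had 76279 reads (78.4% in the kallisto counts), PP7435_Chr2-0544 had 29376 (87.4%), PP7435_Chr1-0289 had 25894 (83.1%) and PP7435_Chr1-0513 had 25391 (78.7%). PP7435_Chr3-1292, with a coding length of 177 bases, had 23589 reads, of which 67 over all 15 libraries were not in the kallisto counts. PP7435_Chr4-0412, PP7435_Chr1-0199, PP7435_Chr1-0256 and PP7435_Chr1-0618 followed with between 19385 and 23199 reads. Among members with at least 1000 reads, of which there were 108, the highest shares were those of PP7435_Chr3-0765 (99.9%), PP7435_Chr2-2452 and PP7435_Chr3-1292 (both 99.7%), PP7435_Chr1-1320 (99.7%) and PP7435_Chr2-1638 (99.7%). For PP7435_Chr3-0765 the estimated counts exceeded the reads in some libraries, up to 101.9% of the reads of WT at S3. kallisto divides reads that fit several transcripts among them, so its estimates for genes with a near copy are uncertain.

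The *FLO* family, 13 genes in this strain, held 2 members. They were *FLO5-2*, taken here as PP7435_Chr3-1228, and PP7435_Chr4-1013, a *FLO* gene without a name of its own; both encode proteins with a PA14/GLEYA domain, a carbohydrate binding domain of fungal adhesins. *FLO5-2* had 5661 reads with a share of 91.8%, and PP7435_Chr4-1013 had 6330 reads with a share of 96.5%. The study prints the tags of the pair of *FLO5* genes with other chromosome numbers, and the tags used here are those of the files. The shares of the other *FLO* genes ran from 0.125% for PP7435_Chr1-2104 to 27.1% for PP7435_Chr4-0629, apart from *FLO200* (PP7435_Chr3-1226) with 71.4%. *FLO11* had 2.38%, *FLO400* 0.645% and *FLO5-1* 3.62%. PP7435_Chr3-1225, next to *FLO200* by its tag, was a member.

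The level of both *FLO* members was low and alike. On recovered reads *FLO5-2* (PP7435_Chr3-1228) averaged 14.9 ± 1.08 and 12.7 ± 0.224 TPM in *flo8Δ* at S1 and S3, and 16.4 ± 2.71, 12.04 ± 1.83 and 10.7 ± 2.52 TPM in WT at S1, S3 and S5 (SD, n = 3 each). PP7435_Chr4-1013 averaged 17.8 ± 1.83 and 12.9 ± 1.49 TPM in *flo8Δ* at S1 and S3, and 16.3 ± 2.13, 13.8 ± 0.458 and 14.5 ± 2.90 TPM in WT at S1, S3 and S5. Their remaining reads varied more. Those of *FLO5-2* were 31, 15 and 41 reads in *flo8Δ* at S1 and 13, 11 and 10 at S3, against 108, 91 and 38 in WT at S1, 18, 18 and 29 at S3, and 8, 9 and 26 at S5. In CPM they were highest in the 3 WT libraries at S1, between 8.20 and 9.96, and no other library exceeded 4.20. Those of PP7435_Chr4-1013 were 5, 4 and 9 reads in *flo8Δ* at S1 and 2, 2 and 1 at S3, against 19, 23 and 26 in WT at S3. In WT at S5 they were 27, 9 and 59 reads, a wide spread.

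**Figure D2:**
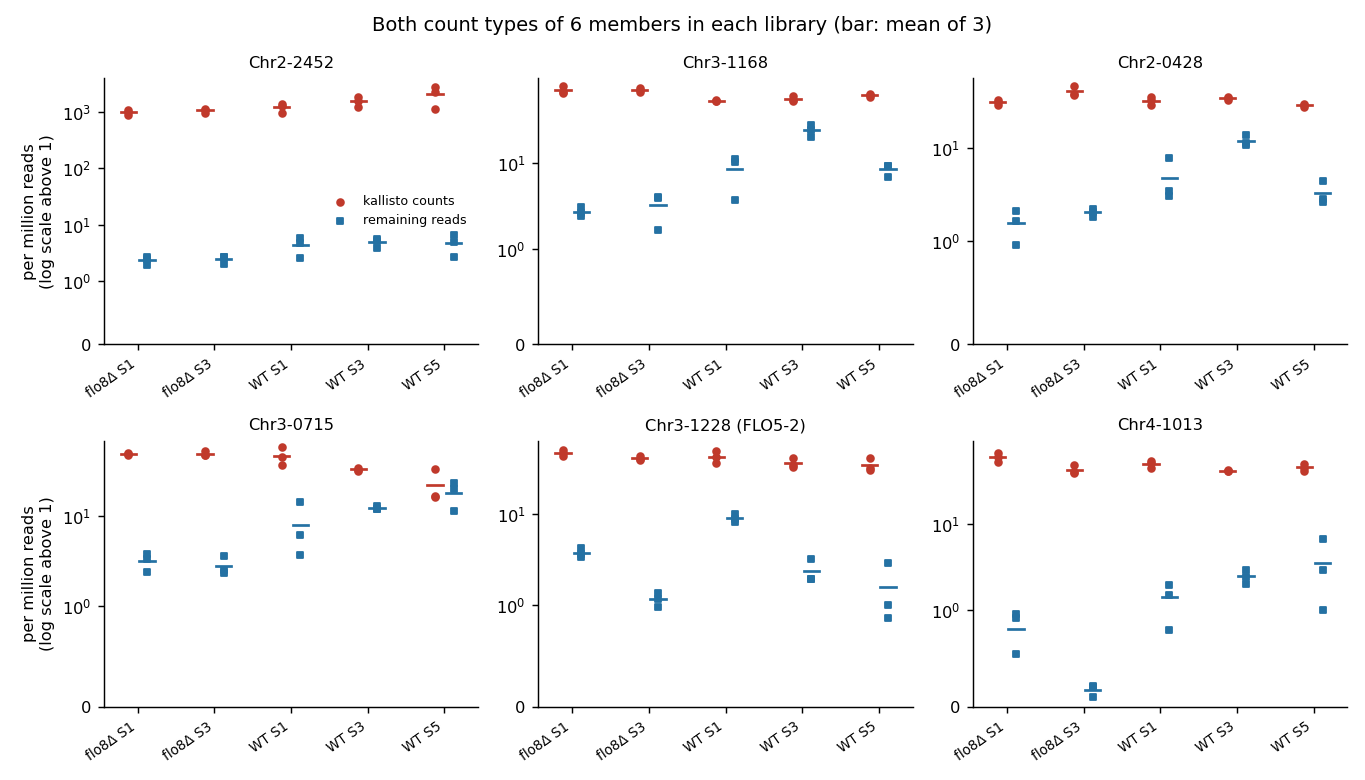
Kallisto counts (red circles) and remaining reads (blue squares) in CPM for 6 members in each library, on an axis that is logarithmic above 1 and linear below; short bars are means of 3 libraries. The remaining reads of PP7435_Chr3-1168, PP7435_Chr2-0428, PP7435_Chr3-0715 and PP7435_Chr4-1013 were lower in *flo8Δ* at S3 than in WT at S3 in every library, and the kallisto counts of PP7435_Chr2-2452 spread most at S5; tags are written without their PP7435 prefix.

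Because the rule held the reads of the members steady between the strains, their kallisto counts, most of those reads, could move little. Between *flo8Δ* and WT the log2 ratio of kallisto counts in CPM, with 0.1 added, ran from -0.94 to 0.70 at S1 (median 0.02) and from -1.12 to 1.05 at S3 (median 0.14). The ends at S3 were PP7435_Chr1-1523 and PP7435_Chr4-0403. The remaining reads, the small part of each member, were free to differ. Over the 91 members with at least 100 remaining reads their log2 ratio of *flo8Δ* to WT ran from -2.62 to 1.18 at S1 (median -0.17) and from -3.23 to 1.24 at S3 (median -0.18). At S1 it was below -1 for 8 members and above 1 for 2, and at S3 below -1 for 13 and above 1 for 2. These are descriptions of the contrasts that chose the members. The share of all genes past these limits is not given here, so nothing about the members is read from the counts. The lowest ratio at S3, that of PP7435_Chr4-1013, rests on very few reads in *flo8Δ*.

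PP7435_Chr3-1168 and PP7435_Chr2-0428 were among the members with the lowest ratios at both points. PP7435_Chr3-1168 had 24, 10 and 30 remaining reads in *flo8Δ* at S1 and 122, 107 and 17 in WT at S1. The second of these *flo8Δ* libraries and the third of these WT libraries were the shallow ones. In CPM the third WT library still stood well below the other WT libraries at S1 and near those of *flo8Δ*. At S3 PP7435_Chr3-1168 had 39, 37 and 17 in *flo8Δ*, and 258, 231 and 181 in WT. In CPM these were 4.07 at most in the *flo8Δ* libraries at S3 and 20.2 at least in the WT libraries, while its kallisto counts were between 67.4 and 74.8 CPM in *flo8Δ* and between 53.7 and 60.5 CPM in WT. PP7435_Chr2-0428 had 17, 21 and 21 remaining reads in *flo8Δ* at S3, against 126, 106 and 96 in WT at S3. PP7435_Chr4-0880 had 22, 12 and 10 in *flo8Δ* at S3, against 155, 115 and 62 in WT at S3. For these members every *flo8Δ* library lay below every WT library at S3 on remaining reads in CPM, as it did for 36 of the 91 members and for 20.1% of all genes with at least 100 remaining reads. Nothing is read from this count, because the rule used the contrast. The kallisto share of PP7435_Chr3-1168 was accordingly 95.7% in *flo8Δ* at S3 and 69.8% in WT at S3.

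At S1, the member with the lowest ratio on remaining reads was PP7435_Chr4-0586, with 6, 5 and 12 remaining reads in *flo8Δ*, against 76, 41 and 44 in WT (log2 ratio in CPM -2.62). Its kallisto counts gave a log2 ratio of -0.38. PP7435_Chr2-0740 and PP7435_Chr1-2247 lay at the other end, with log2 ratios on remaining reads of 1.18 and 1.09 and on kallisto counts of -0.48 and -0.02. At S3 the highest were PP7435_Chr3-1135 (1.24) and PP7435_Chr2-0972 (1.06). In PP7435_Chr1-1523 the count types went opposite ways. It had 195, 214 and 223 kallisto counts in *flo8Δ* at S3 and 549, 418 and 337 in WT at S3, a log2 ratio in CPM of -1.12, and 244, 170 and 246 remaining reads in *flo8Δ*, against 106, 121 and 138 in WT, a log2 ratio of 0.76. In both count types the groups did not overlap.

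**Figure D3:**
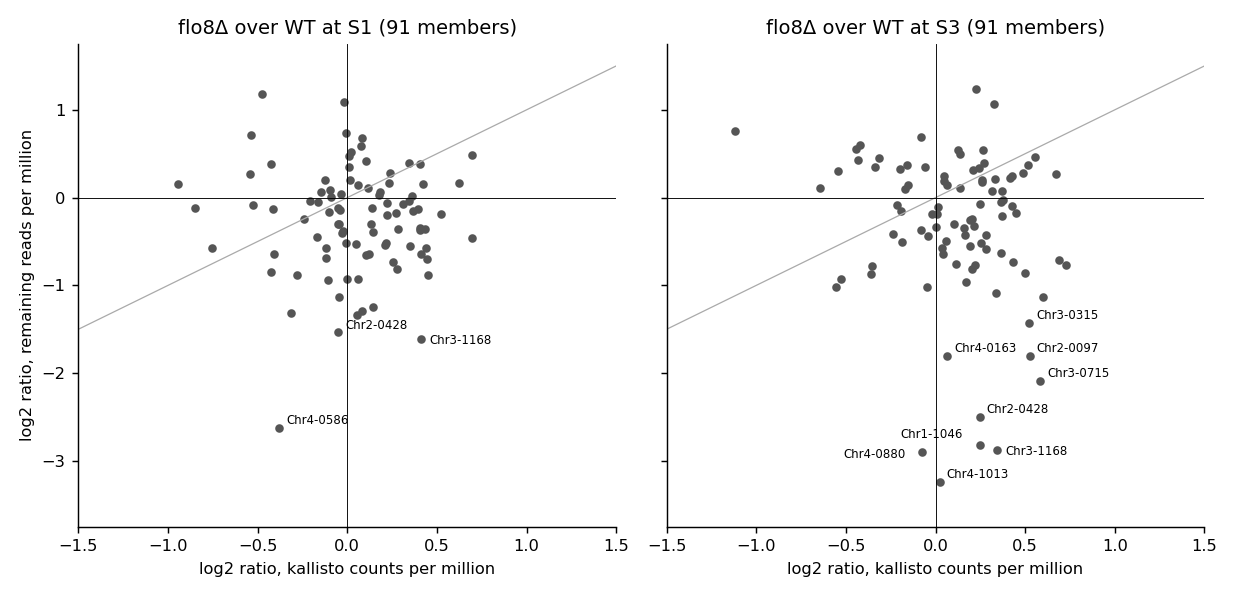
Log2 ratio of *flo8Δ* to WT for kallisto counts (x axis) against that for remaining reads (y axis), both from group means in CPM with 0.1 added, for the 91 members with at least 100 remaining reads, at S1 and at S3; the grey line marks equal ratios. Most kallisto ratios, held by the rule, lie close to 0. On remaining reads 8 members at S1 and 13 at S3 lie below -1, and the share of all genes that do so is not given. Tags are written without their PP7435 prefix.

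For S3 against S1 the limits were narrower in WT, and *flo8Δ* had none of its own. On kallisto counts the log2 ratio ran from -1.04 to 1.09 in *flo8Δ* and from -0.50 to 0.64 in WT. On remaining reads, over the 91 members, 2 were below -1 and 3 above 1 in *flo8Δ*, and 3 were below -1 and 7 above 1 in WT. The share of all genes past these limits is not given here either, so nothing is read from them. The lowest in WT on remaining reads was *FLO5-2* (PP7435_Chr3-1228) at -1.89, and it was -1.60 in *flo8Δ*. In WT the S3 and S1 libraries separated opposite to those of *flo8Δ*, with no overlap in either strain, for 4 of 117 members on reads (2.58% of all genes did so), for 3 of 116 on kallisto counts (1.03%) and for 3 of 91 on remaining reads (2.56%). Nothing is read from these counts, because the rule used these contrasts. The highest in WT were PP7435_Chr1-1046 (2.12, on 121 remaining reads over all libraries), PP7435_Chr4-0880 (1.99) and PP7435_Chr3-0315 (1.65).

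The kallisto share of a member was thus not a fixed number. Its median over the members was 90.6% in *flo8Δ* at S1 and 90.4% at S3, and 86.9%, 86.1% and 87.9% in WT at S1, S3 and S5. Of the 117 members 88 stayed above 75% in all 5 samples. The distance between a member's highest and lowest sample had a median of 6.91 points and reached 39.9 points for PP7435_Chr3-0715, whose share was 93.9% and 94.6% in *flo8Δ* at S1 and S3, and 83.1%, 72.6% and 54.6% in WT at S1, S3 and S5.

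The switch back of the growth rate, S5 against S1 and S5 against S3 in WT, was not among the ratios of the rule and was tested. The S5 libraries did enter the rule through the summed share and the limit on reads. A call needed a log2 fold change above 1 or below -1 with an adjusted p under 0.05. In S5 against S1, 0 of 116 members tested were called on recovered reads (limma on log2 of the normalized count plus 1), where 0.0941% of all genes tested were called higher and 0.301% lower. At an unadjusted p under 0.05, 13 members were higher (11.2%, against 12.4% of all genes tested) and 15 lower (12.9%, against 13.5%), and edgeR and DESeq2 on the reads also called 0 members. On kallisto counts (edgeR's quasi-likelihood test) 0 of 116 members were called, where 0.0733% of all genes were called higher and 0.440% lower, and DESeq2 called 1 lower. Here 13 members were higher (11.2%, against 6.16% of all genes) and 12 lower (10.3%, against 9.22%) at an unadjusted p under 0.05. Members have more kallisto counts than most genes, and these shares are not matched for count. The median log2 fold change of the members was 0.04 on reads and 0.05 on kallisto counts, beside 0.00 and -0.03 over all genes tested. The steadiness of the members in S1 and S3 was set by the rule, and both contrasts use those S1 or S3 libraries.

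PP7435_Chr2-2452 had the highest member value in S5 against S1, a log2 fold change of 0.71 ± 0.31 on reads (SE, adjusted p = 0.20 in limma) and 0.79 ± 0.27 on kallisto counts (adjusted p = 0.20 in edgeR). The third S5 library decides this value. Over all genes its reads also stood apart, with a chi-square per degree of freedom of 48.8 and 61.0 against replicates 1 and 2. Between replicates 1 and 2 it was 8.61, and between WT S1 replicates 19.6 to 50.4. Without S5 replicate 3 the log2 fold change was 1.09 on reads (limma, adjusted p = 0.022) and 1.104 on kallisto counts (edgeR, adjusted p = 0.011), past the threshold in both. PP7435_Chr1-0199, higher by 0.50 on reads (limma, adjusted p = 0.035), and PP7435_Chr4-0843, with -0.42 on reads and -0.54 on kallisto counts (adjusted p = 0.035 in limma and 0.044 in edgeR), passed the p-value and not the fold change.

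PP7435_Chr3-0715 went opposite ways in its count types. Its kallisto counts were 150, 143 and 295 at S5, against 484, 373 and 264 at S1. Its remaining reads were 182, 204 and 102 at S5, against 66, 145 and 17 at S1. In CPM, the kallisto counts were 16.4, 16.0 and 33.0 at S5 and 44.6, 36.2 and 57.0 at S1 and did not overlap, and the remaining reads were 19.9, 22.8 and 11.4 at S5 and 6.09, 14.1 and 3.67 at S1, with an overlap between S5 replicate 3 and S1 replicate 2. The log2 fold changes were -1.08 ± 0.26 (SE, adjusted p = 0.083 in edgeR) on kallisto counts and 1.12 ± 0.43 (adjusted p = 0.15) on remaining reads, and -0.41 ± 0.11 on all reads (adjusted p = 0.075 in limma). Deviations of same-numbered libraries of S1 and S5 correlated weakly (0.136, 0.201 and 0.192), and no label pairs them. With a block for the replicate, an alternative, both values passed the threshold, at -1.13 (adjusted p = 0.014) and 1.26 (adjusted p = 0.044 in edgeR). The threshold was passed under 5 of 13 alternatives on kallisto counts and 2 of 11 on remaining reads. The kallisto value was also past the threshold without S1 replicate 2 (-1.25) and without S5 replicate 3 (-1.45), and the remaining reads without S1 replicate 2 (1.85).

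On the remaining reads, a test chosen after seeing the data, 87 of the 117 members had at least 10 in 3 of the 6 libraries in S5 against S1, and edgeR called 0 of them higher, where 0.152% of all genes were called higher and 0.437% lower. At an unadjusted p under 0.05, 2 members were higher (2.30%, against 12.6% of all genes) and 8 lower (9.20%, against 13.9%), and DESeq2 called 0 higher and 2 lower. Remaining reads of members are few, and these shares are not matched for count. The 1 member called lower was *FLO5-2* (PP7435_Chr3-1228), with 8, 9 and 26 remaining reads at S5, against 108, 91 and 38 at S1 and a log2 fold change of -2.48 ± 0.37 (SE, adjusted p = 0.020). It passed the filter through the S1 libraries. The call was lost without S1 replicate 1 (adjusted p = 0.11), S5 replicate 1 (0.11) or S5 replicate 2 (0.067), while the log2 fold change stayed between -3.23 and -2.19 over the 10 alternatives that gave a value. Its kallisto counts gave -0.30 ± 0.15 (adjusted p = 0.37). With that block PP7435_Chr3-0715, above, was the 1 member called higher.

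In S5 against S3, 0 of 116 members were called on recovered reads, where 0.0565% of all genes tested were called higher and 2.33% lower (limma). At an unadjusted p under 0.05, 15 members were higher (12.9%, against 23.9% of all genes) and 24 lower (20.7%, against 25.1%), and edgeR and DESeq2 called 0. On kallisto counts 0 of 116 were called by edgeR and by DESeq2, where 1.12% of all genes were called higher and 5.83% lower. Here 28 members were higher (24.1%, against 14.1% of all genes) and 15 lower (12.9%, against 18.1%) at an unadjusted p under 0.05, again not matched for count. The lowest member was PP7435_Chr3-1040, with 166, 162 and 214 kallisto counts at S5, against 335, 342 and 349 at S3. Its log2 fold change was -0.82 ± 0.11 on kallisto counts (edgeR, adjusted p = 6.3e-05) and -0.80 ± 0.09 on reads (limma, adjusted p = 0.00036). The highest was PP7435_Chr1-1523, with 0.84 ± 0.15 on kallisto counts (edgeR, adjusted p = 0.00081) and 0.63 ± 0.13 on reads (limma, adjusted p = 0.0069). Without S3 replicate 1 its kallisto value was 1.02 and past the threshold.

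On remaining reads in S5 against S3, 7 of the 87 members that passed the filter were called lower and 0 higher (edgeR), where 2.54% of all genes were called lower and 0.114% higher. At an unadjusted p under 0.05, 21 members were lower (24.1%, against 23.8% of all genes) and 5 higher (5.75%, against 24.5%), again not matched for count. DESeq2 called 0 higher and 8 lower. PP7435_Chr2-0428 had 40, 23 and 25 remaining reads at S5, against 126, 106 and 96 at S3, a log2 fold change of -1.87 ± 0.22 (SE, adjusted p = 0.00065). PP7435_Chr3-1168 had 85, 83 and 61 at S5, against 258, 231 and 181 at S3 (-1.52 ± 0.18, adjusted p = 0.00058). The groups did not overlap for either, and their kallisto counts gave log2 fold changes of -0.17 ± 0.10 and 0.21 ± 0.09 (adjusted p = 0.25 and 0.11). The other 5 were PP7435_Chr4-0880 (-1.31), PP7435_Chr1-1785 (-1.29), PP7435_Chr1-0218 (-1.15), PP7435_Chr3-1143 (-1.11) and PP7435_Chr4-0412 (-1.0003). Their mean remaining reads in CPM were also higher in WT at S3 than at S1, except for PP7435_Chr1-0218 (7.85 at S3 and 7.90 at S1). This is no separate evidence, since the rule used S3 against S1 and the same S3 libraries stand in both contrasts. Only PP7435_Chr2-0428, PP7435_Chr3-1168 and PP7435_Chr3-1143 were called under each of the 11 alternatives, and leaving out S3 replicate 2 left 3 calls and S5 replicate 1 left 4. With at least 10 remaining reads asked of every library 6 were called, and PP7435_Chr1-1785 did not pass that filter. It was called under 6 of the 10 alternatives that gave it a value. Without S5 replicate 3, *FLO5-2* (PP7435_Chr3-1228) was also called lower (-1.32) and PP7435_Chr3-1049 was called higher (1.06).

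PP7435_Chr4-0412 differed in both count types and in opposite directions. At S5 it had 1308, 1286 and 1355 kallisto counts, against 1061, 878 and 827 at S3, and 231, 219 and 254 remaining reads, against 434, 520 and 476 at S3. In neither count type did the groups overlap. The kallisto counts were higher by 0.62 ± 0.09 on the log2 scale (edgeR, adjusted p = 0.00018), while all reads differed by 0.18 ± 0.06 (limma, adjusted p = 0.047). The remaining reads gave -1.0003 ± 0.10 (adjusted p = 0.00026), which is at the limit of the fold change.

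**Figure D4:**
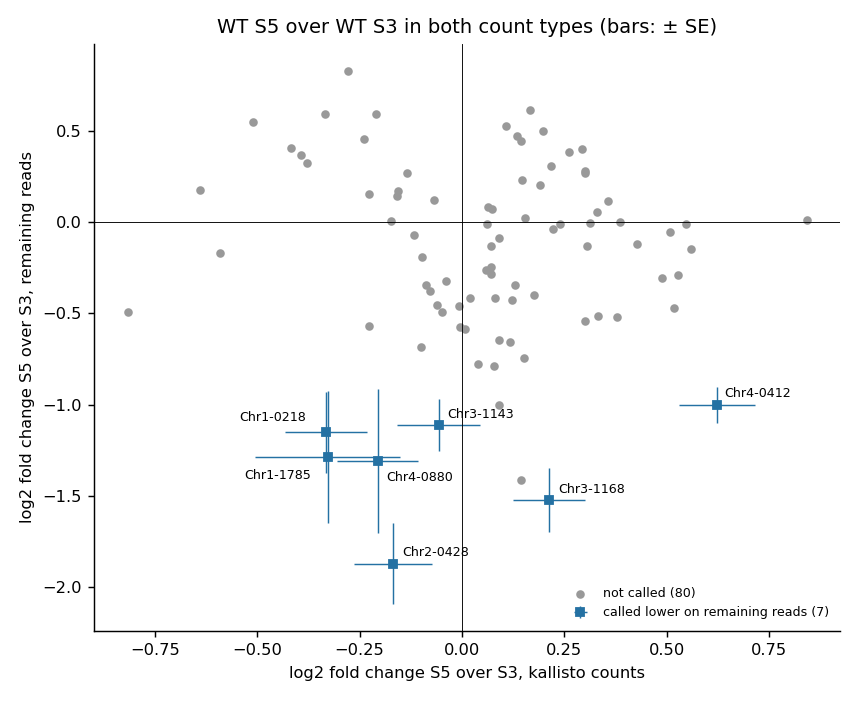
Log2 fold change of S5 over S3 in WT on kallisto counts (x axis) against that on remaining reads (y axis) for the 87 members tested on both. The 7 members called lower on remaining reads (blue squares, bars ± SE) lie at or below -1 on the y axis and between -0.33 and 0.62 on the x axis; tags are written without their PP7435 prefix.

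The 13 *FLO* genes were tested in the same contrasts, and the shares of all genes called are those given above. In S5 against S1, 1 was called higher and 2 lower of 13 tested on recovered reads, 0 higher and 1 lower of 11 on kallisto counts, and 1 higher and 4 lower of 13 on remaining reads, *FLO5-2* included. In S5 against S3 the counts were 0 higher and 1 lower on recovered reads, 0 and 0 on kallisto counts, and 0 and 1 on remaining reads. The median log2 fold change of the list was -0.08 on reads in S5 against S1 and 0.13 in S5 against S3. PP7435_Chr4-1013 was not called in any of them, and its remaining reads gave 1.33 ± 0.65 in S5 against S1 (adjusted p = 0.23 in edgeR).

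A feature the rule did not use is the place of a gene in the order of locus tags, which is taken to follow the chromosome. Positions and strands were not used here, so a tag 1 number away is taken as a neighbour without a check of distance or orientation. For 89 members with at least 100 kallisto counts a neighbour had at least 100 remaining reads, and the member's kallisto counts were set against the neighbour's remaining reads, both as log2 CPM with 0.5 added, over the 15 libraries. The better of both neighbours gave a median Pearson's r of 0.53 for members and 0.34 for 3969 other genes with such a neighbour. With r over 0.7 and totals within 2-fold of each other there were 20 of 89 members (22.5%), against 138 of 3969 other genes (3.48%). Members have more kallisto counts than most genes, and among genes with at least 1000 of them the median r was 0.54 for 82 members and 0.51 for 1399 other genes, and the shares with both properties were 24.4% and 9.58%. With r over 0.9 alone the order was the other way, with 4 of these 82 members (4.88%) and 84 of these 1399 other genes (6.004%). The kallisto counts compared here entered the rule through the share, so the shares that ask for totals within 2-fold are in part set by it. The libraries share sampling points and depth. These are descriptions with no test, and nothing is read from the difference between members and other genes.

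In several pairs, chosen after their values were seen, the values were nearly equal library by library. PP7435_Chr2-0544 had 25665 kallisto counts, and PP7435_Chr2-0543 had 23884 remaining reads (r = 0.95). In CPM, the member had between 209 and 244 kallisto counts in the *flo8Δ* libraries and between 149 and 204 in the WT libraries, and the neighbour had between 197 and 230 remaining reads in *flo8Δ* and between 132 and 188 in WT. Both thus stood higher in the *flo8Δ* libraries, with no overlap for either gene. PP7435_Chr1-0256 had 20464 kallisto counts and PP7435_Chr1-0257 had 19752 remaining reads (r = 0.91), and PP7435_Chr4-0208 and PP7435_Chr4-0209 had 3782 and 4193 (r = 0.91). PP7435_Chr1-1320, one of the members with the highest shares, had 4057 kallisto counts, and PP7435_Chr1-1321 had 4113 remaining reads (r = 0.87). In the *flo8Δ* libraries the member had between 23.0 and 30.6 CPM and the neighbour between 24.5 and 30.6 CPM, against 32.0 to 40.2 CPM and 29.6 to 43.0 CPM in the WT libraries at S1 and S3. The WT libraries at S5, with 26.2 to 29.4 CPM for the member and 23.8 to 27.4 CPM for the neighbour, overlapped those of *flo8Δ*. In PP7435_Chr4-0711 the totals were far apart, with 9308 kallisto counts beside 225458 remaining reads of PP7435_Chr4-0710 (r = 0.90). PP7435_Chr4-0843 had 6010 kallisto counts beside 11516 remaining reads of PP7435_Chr4-0842 (r = 0.94). PP7435_Chr3-1168, whose remaining reads differed between the strains, paired with PP7435_Chr3-1167 (r = 0.85, 8283 kallisto counts beside 15044 remaining reads), *FLO5-2* (PP7435_Chr3-1228) with PP7435_Chr3-1227 (r = 0.56, 5195 beside 4555), and PP7435_Chr3-1225 with *FLO200* (r = 0.74, 1062 beside 450).

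**Figure D5:**
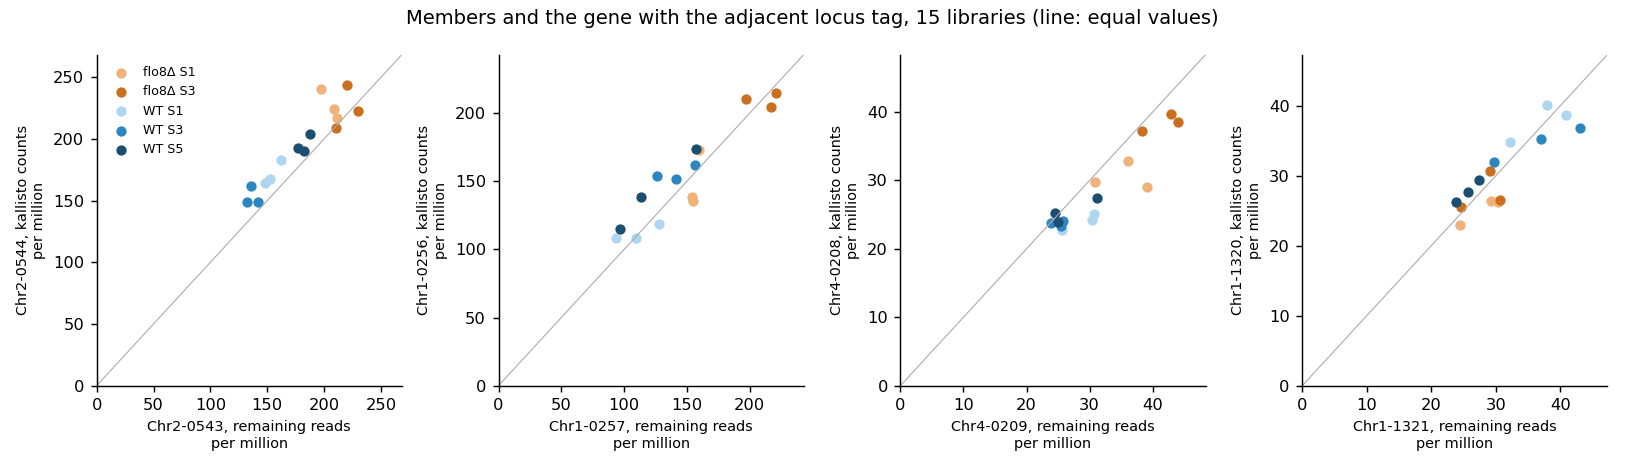
Kallisto counts in CPM of 4 members (y axis) against remaining reads in CPM of the gene with the adjacent locus tag (x axis), 1 point for each of the 15 libraries, coloured by sample; the grey line marks equal values and tags are written without their PP7435 prefix. The pairs were chosen after their values were seen, from those with a high r and near-equal totals, and the points lie near the line in all 4 panels.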

How the data were processed

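RNA-Seq of poly-A RNA from 15 chemostat samples of *K. phaffii* CBS7435 was analysed, 3 biological replicates each of *flo8Δ* at S1 and S3 and of WT at S1, S3 and S5. Per the methods, the authors trimmed single reads with Trim Galore 0.4.2, checked them with FastQC 0.11.5, ran kallisto 0.43.1 against CBS7435 transcripts, passed its output through tximport and used DESeq2 1.14.1 on each pair of samples. The authors deposited kallisto estimated counts per library, in files named for a stranded fr setting, and 6 tables of DESeq2-normalized counts, a signal scaled within the table, with 6 libraries and 5341 transcripts each. The authors also deposited effective lengths with the estimated counts, which gave the TPM here. The strand setting behind the normalized counts is not given in the sources used here. All 36 columns were used.

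Each normalized value, corrected for the effective length that differs in 1 *flo8Δ* S1 library, is a whole multiple of a step of its column. Division by the step gave the recovered reads: 100% of values came out whole to within 0.01, and tables that share a library differed for 0 genes. Since kallisto output went into the normalized counts, these whole values may be rounded estimates and not sequenced reads. For PP7435_Chr3-0845, not a member, 10944 kallisto counts exceeded the 1878 recovered reads. Remaining reads are recovered reads less kallisto counts, not below 0. CPM values are relative to 1000000 recovered reads of the library.

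S5 was tested against S1 and S3 in WT with limma 3.58.1 (trend) on log2 of the normalized count plus 1, and with edgeR 4.0.16 (quasi-likelihood, TMM) on rounded kallisto counts, in R 4.3.3, over all genes with at least 10 in at least 3 of the 6 libraries, with Benjamini-Hochberg adjustment. Alternatives were a pseudocount of 0.1, other filters, RLE factors, DESeq2 1.42.0, a replicate block, all libraries in 1 fit, and each library left out. The test on remaining reads and kallisto counts scaled by the reads were chosen after seeing the data. Scripts were tested on simulated data. Deviations from the sample mean of libraries with the same number correlated at 0.136, 0.201 and 0.192 between S5 and S1. The main tests used no pairing, and the replicate block is an alternative only, since no label says that a number marks a culture.

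Members, gene lists and tests were chosen with earlier results of these data known. Named genes were the 10 members with the most reads, the 5 with the highest share among those with at least 1000 reads, those next to a limit, every member called, the *FLO* genes, runs of tags, the genes most like 1 member, and, chosen after their values were seen, the ends of each range and pairs of neighbours. No gene names were taken for the locus tags, since 0 of them matched the RefSeq table, and no sequence is shown.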

Additional observations from a re-analysis of the deposited data

Results flagged for a closer look

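For 7 members S3 against S1 went opposite ways in the strains, with every S3 library on one side of every S1 library in each strain. The difference between the strains was not tested, since the rule that chose the members used these contrasts. Log2 ratios of S3 over S1 are of values in CPM. On recovered reads 4 of 117 members did so, where 2.58% of all genes with at least 100 reads did. PP7435_Chr1-1298 gave 0.15 in *flo8Δ* and -0.29 in WT, PP7435_Chr1-2214 gave -0.35 in *flo8Δ* and 0.30 in WT, PP7435_Chr4-0412 gave 0.0684 in *flo8Δ* and -0.14 in WT, and PP7435_Chr4-0683 gave -0.10 in *flo8Δ* and 0.21 in WT. On kallisto counts 3 of 116 members did so, where 1.03% of genes did: PP7435_Chr1-1298 with 0.13 in *flo8Δ* and -0.31 in WT, PP7435_Chr1-2214 with -0.36 in *flo8Δ* and 0.29 in WT, and PP7435_Chr4-0412 with 0.0706 in *flo8Δ* and -0.38 in WT. On remaining reads 3 of 91 did so, where 2.56% of genes did: PP7435_Chr2-0097 with -0.74 in *flo8Δ* and 0.13 in WT, PP7435_Chr2-1219 with -0.15 in *flo8Δ* and 0.47 in WT, and PP7435_Chr4-1013, a *FLO* gene, with -1.74 in *flo8Δ* and 0.76 in WT, on 221.6 remaining reads over all libraries.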

How the results depend on the processing

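The number of members was 315 with a share limit of 50% and 49 with one of 90%, and it stayed within 1.5 times of 117 with other limits on reads or none on the ratios. The counts of members called kept to within 1.5 times of those given under 129 of 148 alternatives. In S5 against S1, leaving out 1 library gave 0 to 1 members called higher on recovered reads, 0 to 1 higher and 0 to 1 lower on kallisto counts, and 0 to 1 higher and 0 to 2 lower on remaining reads. On kallisto counts 1 member was called lower with the replicate block, with DESeq2 and with all 15 libraries in 1 fit. On remaining reads 1 was called higher with the replicate block, 2 lower with DESeq2 and 0 lower with at least 10 in every library, since *FLO5-2* then drops out. In S5 against S3, leaving out 1 library gave 0 to 1 members called higher on kallisto counts, and 0 to 1 higher and 3 to 8 lower on remaining reads. Same-numbered libraries of S5 and S3 correlated at 0.43, -0.10 and 0.54. With the replicate block 7 were called lower on remaining reads there, PP7435_Chr4-0412 (-0.999) no longer among them. Another member, not identified here, was called in its place. Among the other members called in the main tests, or highest or lowest in a main test, the block changed no call beyond those of PP7435_Chr3-0715. Where a call was lost, the cause was not tested. For single members 0 values reversed. Remaining reads of members are few, so depth limits their fold changes.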
